A study of Mus musculus with 4 samples.

Results

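The pyruvate dehydrogenase kinases Pdk1 to Pdk4, the pyruvate dehydrogenase phosphatase Pdp1 and the mitochondrial pyruvate carrier subunits Mpc1 and Mpc2 were followed in white adipose tissue (WAT) of mice that lack FSP27, a lipid droplet protein of fat cells encoded by Cidec. These 7 genes were chosen on the signals of this same comparison, which were known, so that their levels are given as a description and without a p-value. Probe sets carrying the symbol of a member were taken from the array. Of the 7 members 5 had a probe set named here, with 6 probe sets in all, out of 12393 named genes. Pdp1 and Mpc2 had none, nor did their older names Ppm2c and Brp44, and they are not analysed here. The arrays compared FSP27-deficient (Fsp27 knockout) with wild-type mice, both C57BL/6J males 3 months old, the FSP27-deficient ones kept on a normal chow diet. For each genotype, RNA of the gonadal WAT of 5 mice was combined into a single pool, and that pool was hybridised to 2 Affymetrix arrays. Differences between duplicates are therefore technical, and every p-value below measures that spread and says nothing of mouse-to-mouse variation. An exact two-sided permutation test on 2 against 2 arrays has 0.333 as its smallest p.

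The pyruvate dehydrogenase complex sits in the mitochondrial matrix and turns pyruvate into acetyl-CoA, the step that commits carbon from glucose to oxidation or to fat synthesis. Pyruvate reaches it through a carrier made of one MPC1 and one MPC2 subunit. The kinases phosphorylate the E1 alpha subunit and switch the complex off, and the phosphatases PDP1 and PDP2 remove the phosphate and switch it on. PDK4 is the isoform best known for its induction by fasting, fatty acids, glucocorticoids and PPAR agonists, in heart, skeletal muscle and fat, while PDK2 is found in most tissues. PDK1 is a known target of the hypoxia factor HIF-1, and PDK3 has the most restricted distribution, with high levels in testis. In adipocytes, less pyruvate oxidation leaves more of it for glycerol synthesis, and in brown adipocytes the carrier is needed for full heat production.

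RefSeq places the genes, in the GRCm38.p6 assembly, at chr2:71873215-71903858 (Pdk1), chr11:95026258-95041371 (Pdk2), chrX:93764616-93832150 (Pdk3), chr6:5483351-5496278 (Pdk4), chr4:11958183-11966450 (Pdp1), chr17:8283787-8297667 (Mpc1) and chr1:165461260-165481218 (Mpc2). The deposited values themselves carry no coordinates. The bases upstream of an annotated start are shown for the 3 members whose arrays were higher in FSP27-deficient WAT. Each stretch has 250 bases of the gene's own strand that end next to the first transcribed base. Capitals mark a CCAAT box (CCAAT, or ATTGG where it lies on the opposite strand) or a GC box (GGGCGG, or CCGCCC on the opposite strand). The stretches are chr6:5496279-5496528 on the minus strand for Pdk4, chr11:95041372-95041621 on the minus strand for Pdk2 and chr17:8283537-8283786 on the plus strand for Mpc1.
Pdk4: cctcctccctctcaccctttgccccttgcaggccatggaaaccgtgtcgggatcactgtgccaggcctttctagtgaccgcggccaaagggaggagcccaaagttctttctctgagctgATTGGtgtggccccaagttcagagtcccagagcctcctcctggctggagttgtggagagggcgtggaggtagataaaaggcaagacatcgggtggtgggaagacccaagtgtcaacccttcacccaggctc
Pdk2: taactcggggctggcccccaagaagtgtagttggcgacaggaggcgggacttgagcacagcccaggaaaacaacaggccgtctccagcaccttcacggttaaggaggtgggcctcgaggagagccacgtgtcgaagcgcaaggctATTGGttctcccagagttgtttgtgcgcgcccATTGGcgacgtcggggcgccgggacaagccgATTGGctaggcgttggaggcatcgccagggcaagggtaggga
Mpc1: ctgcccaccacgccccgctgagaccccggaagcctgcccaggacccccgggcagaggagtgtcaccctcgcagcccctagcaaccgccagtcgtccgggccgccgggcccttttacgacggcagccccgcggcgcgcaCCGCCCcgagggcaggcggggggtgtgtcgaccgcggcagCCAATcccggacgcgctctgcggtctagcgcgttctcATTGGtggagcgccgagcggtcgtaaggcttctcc

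The Pdk2 stretch holds 3 CCAAT boxes on the opposite strand, at -105 to -101, -73 to -69 and -42 to -38 from the start. Pdk4 holds 1, at -131 to -127. The Mpc1 stretch holds 2, at -72 to -68 and -35 to -31, and a GC box at -112 to -107. RefSeq gave 9 windows, each from 250 bases before to 50 bases after a start, for 6 of the members, and none for Pdp1. A second Pdk2 window, from a start downstream of the one shown, held neither a CCAAT box nor a GC box. A CCAAT box lay in 5 of the 9 windows, against 37.4% of all 32851 windows of that length, and a GC box in 5 of the 9, against 35.7%. The nuclear receptor element AGGTCA, searched on both strands like the others, was found in 1 of the 9, a second Mpc1 window downstream of the one shown, against 16.3% of all windows. Neither the paired site AGGTCANAGGTCA (DR1, in 0.0396% of windows) nor TCAAGGTCA (the estrogen-related receptor element, in 0.423%) was found in a member's window, and both contain the shorter element. These matches describe letters and are not evidence of a bound factor.

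Pdk4 was the kinase with the highest signals in FSP27-deficient relative to wild-type WAT. Its probe set, 1417273_at, read 2269.6 and 2295 in FSP27-deficient WAT, against 468 and 314 in wild-type WAT. Both FSP27-deficient arrays were high and close to each other, both wild-type arrays were low and the genotypes did not overlap. The mean was 2282 ± 17.6 in FSP27-deficient WAT and 391 ± 109 in wild-type WAT (SD, n = 2 arrays each), a 5.83-fold difference, and the ratio for the 4 pairings of a knockout with a wild-type array lay between 4.85 and 7.31. On the scale of log2(signal + 16), which understates changes of low signals, the fold change was 2.52 (standard error 0.23). In size this ranked 11th from the top among the 8522 genes tested, those whose signal averaged 100 or more.

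Pdk2, the kinase found in most tissues, was the other isoform with higher signals in FSP27-deficient WAT. Probe set 1448825_at read 949 and 831 in FSP27-deficient WAT, and 399.8 and 357 in wild-type WAT. The genotypes were apart, and within each the duplicates lay near each other. Means were 890.1 ± 83.4 in FSP27-deficient WAT and 378 ± 30.5 in wild-type WAT (SD, n = 2 arrays each), 2.35-fold, with pair ratios of 2.08 to 2.66 and a log2 fold change of 1.20 (standard error 0.23).

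Pdk1, the HIF-1 target, showed no separation of the genotypes. Its brighter probe set, 1423748_at, read 341 and 362 in FSP27-deficient WAT, against 293 and 373 in wild-type WAT. The log2 fold change was 0.08 (standard error 0.27). The second probe set, 1423747_a_at, read 251 and 164 in FSP27-deficient WAT and 279 and 239.8 in wild-type WAT, with a log2 fold change of -0.33. For both probe sets the arrays of the genotypes overlapped, and the sign differed between them.

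Pdk3 had the lowest mean signal of the members and the poorest agreement between duplicates. Probe set 1426410_at read 10.2 and 157 in FSP27-deficient WAT, against 265 and 294 in wild-type WAT. Both FSP27-deficient arrays were below both wild-type arrays, but they lay far apart, and the lower one was at the 6.88th percentile of all probe sets on its array. The log2 fold change of -2.13 had a standard error of 0.76, and it was -0.77 without FSP27-deficient array 1 and -3.50 without FSP27-deficient array 2. The markers of testis and epididymis, tissues next to this depot, are relevant since PDK3 is high in testis. Of the 5 named markers 2 were tested and 0 called in either direction, with summed signals of 418 and 238 in FSP27-deficient WAT and 270.1 and 799 in wild-type WAT. Lcn5 gave 431 of the sum on wild-type array 2, but 14.1 on wild-type array 1. Prm1, the other one tested, read 234 and 116 in FSP27-deficient WAT and 147 and 161 in wild-type WAT. The remaining 3 had mean signals under 100. Among them, Prm2 read 7.05 and 50.3 in FSP27-deficient WAT, below its 70.2 and 186 in wild-type WAT. Tnp1 and Pdha2 had arrays that overlapped between the genotypes. The part of these markers in the Pdk3 values was not tested.

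**Figure D1:**
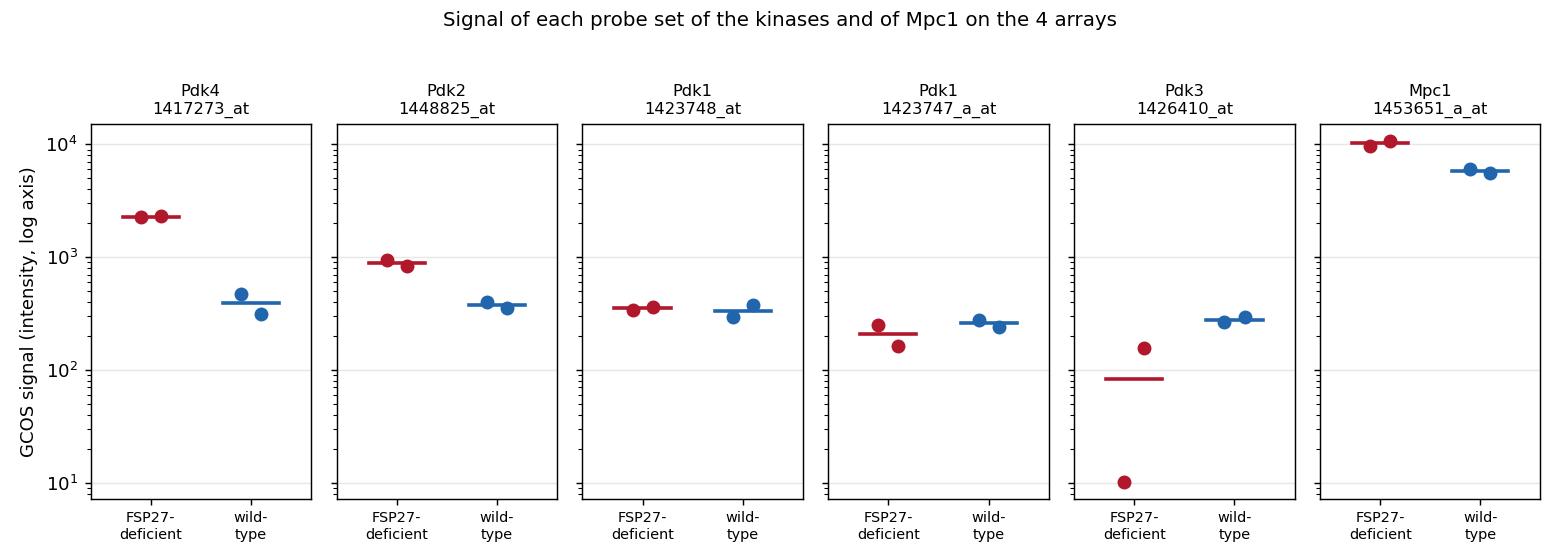
Signal (intensity, log axis) of the 6 probe sets of the kinases and Mpc1, with FSP27-deficient arrays in red on the left and wild-type arrays in blue on the right of each panel. Points are single arrays and bars are means of 2 arrays. Pdk4, Pdk2 and Mpc1 show no overlap, both Pdk1 probe sets overlap, and the Pdk3 points of the FSP27-deficient arrays, 10.2 and 157, are far apart.

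Mpc1, a subunit of the pyruvate carrier, was bright on all arrays and brighter in FSP27-deficient WAT. Probe set 1453651_a_at read 9762 and 10669.8 in FSP27-deficient WAT and 6061 and 5528 in wild-type WAT. All FSP27-deficient values were above all wild-type values. The means were 10216 ± 642 in FSP27-deficient WAT and 5795 ± 377 in wild-type WAT (SD, n = 2 arrays each), a 1.76-fold difference with pair ratios of 1.61 to 1.93. The log2 fold change of 0.82 (standard error 0.16) ranked 566th from the top, so that Mpc1 stood less apart from other genes than Pdk2, at rank 204, or Pdk4. After quantile normalization it was 0.61.

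Together, 3 of the 5 members measured (Pdk4, Pdk2 and Mpc1) were called higher and 0 were called lower by limma, with a trend of the spread on the signal and a Benjamini-Hochberg adjusted p under 0.05. Over all genes tested, 12.3% were called, 5.79% higher and 6.51% lower. Both FSP27-deficient arrays were above both wild-type arrays for 3 members, against 22.7% of all genes, and below for 1 (Pdk3), against 31.4% of all genes. As the members were chosen with these values known, nothing is read from the counts. Without wild-type array 2 Mpc1 was no longer called, and without FSP27-deficient array 2 Pdk3 was called lower.

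**Figure D2:**
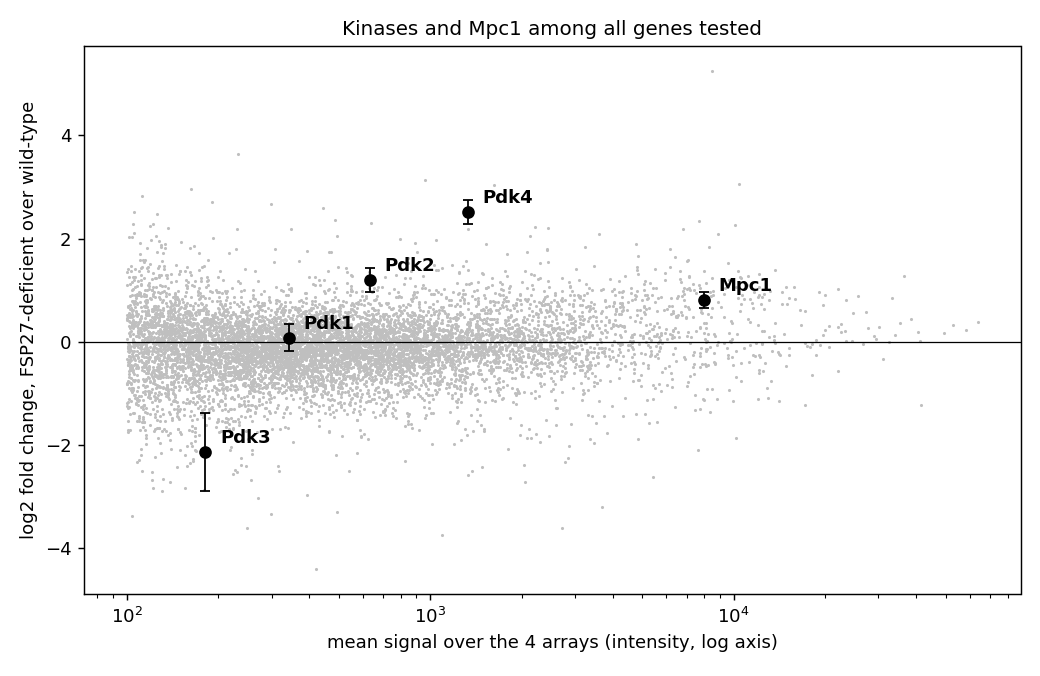
Log2 fold change of FSP27-deficient over wild-type WAT, on log2(signal + 16), against the mean signal of the 4 arrays (intensity, log axis) for the 8522 genes tested. Grey dots are other genes, and black points with bars are the members with their standard error. Pdk4 at 2.52 lies near the top edge at its signal, Pdk1 at 0.08 lies in the middle, and Pdk3 has the widest bar.

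The balance among the kinases was read as the difference between log2(signal + 16) of 2 kinases on the same array, which does not depend on how bright an array is as a whole. Probe sets differ in how well they bind, so a difference on 1 array does not rank the kinases, and only its shift between genotypes is described. Pdk4 minus Pdk1 was 2.68 and 2.61 in FSP27-deficient WAT, against 0.65 and -0.24 in wild-type WAT. The shift was 2.44 (pooled SD of the duplicates 0.45), or a 5.42-fold change in the ratio of Pdk4 to Pdk1. Pdk4 minus Pdk2 was 1.24 and 1.45 in FSP27-deficient WAT and 0.22 and -0.18 in wild-type WAT, a shift of 1.32 (pooled SD 0.22). Thus Pdk4 was higher relative to Pdk2 as well, although Pdk2 itself was higher, and the ratio was 2.50-fold higher in FSP27-deficient WAT.

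Pdk2 minus Pdk1 was 1.43 and 1.16 in FSP27-deficient WAT, against 0.43 and -0.06 in wild-type WAT, with a shift of 1.12 (pooled SD 0.28). The shifts that involve Pdk3 were larger and less certain. Pdk4 minus Pdk3 was 6.45 and 3.74 in FSP27-deficient WAT and 0.79 and 0.09 in wild-type WAT, a shift of 4.65 (pooled SD 1.40), and it was 3.30 without FSP27-deficient array 1 and 6.01 without FSP27-deficient array 2. Pdk2 minus Pdk3 shifted by 3.33 (pooled SD 1.47) and Pdk1 minus Pdk3 by 2.22 (pooled SD 1.33), with 1.87 and 0.89 without FSP27-deficient array 1 and 4.79 and 3.54 without FSP27-deficient array 2. In all 6 pairs the arrays of the genotypes did not overlap, and the kinase named first gained on the second in FSP27-deficient WAT. Each shift equals, by construction, the difference between the log2 fold changes of its 2 kinases, which run in the order Pdk4, Pdk2, Pdk1 and Pdk3.

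**Figure D3:**
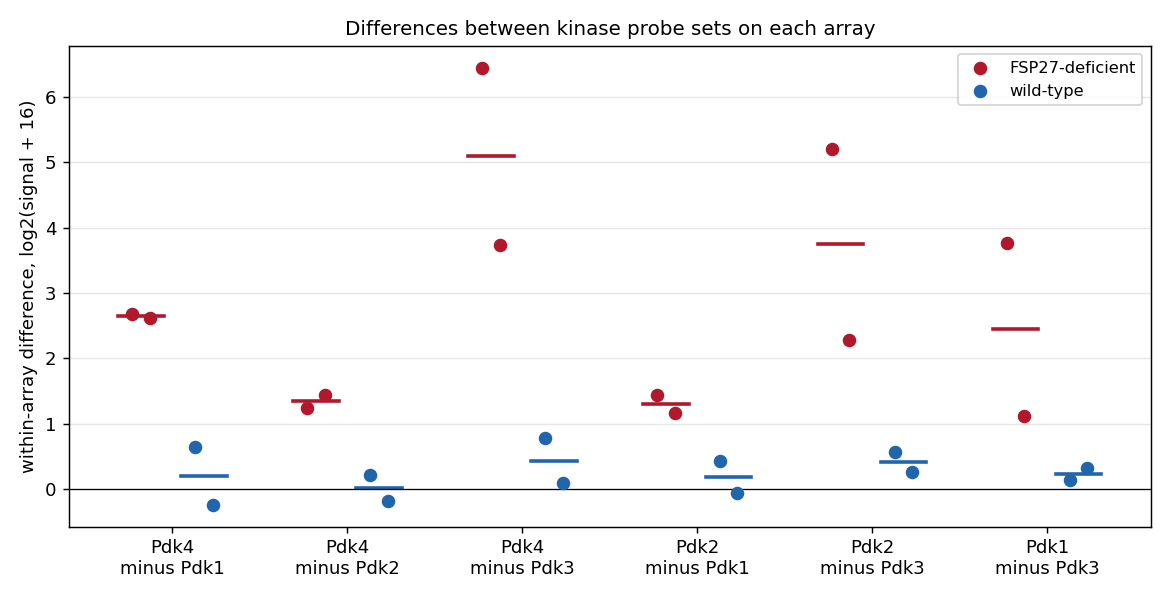
Difference in log2(signal + 16) between the kinases of each pair within every array, FSP27-deficient arrays in red left of wild-type arrays in blue. Points are single arrays and bars are means of 2 arrays. The pairs without Pdk3 have close FSP27-deficient duplicates, such as 2.68 and 2.61 for Pdk4 minus Pdk1, and those with Pdk3 are widely spread.

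Bulk RNA cannot tell fewer cells of a type from less RNA per cell. Pdk4 is also expressed in muscle and brown fat, and the markers of both are therefore given with it. For comparison, 5.79% of all genes tested were called higher and 6.51% lower. Of 10 named markers of skeletal muscle 3 were tested and 0 were called, and the other 7 had mean signals under 100. Among those 7, Ckm, the muscle creatine kinase, read 137 and 136 in FSP27-deficient WAT and 25.9 and 68.2 in wild-type WAT. Myh1 was higher too, with 138 and 66.3 in FSP27-deficient WAT and 28.3 and 10.6 in wild-type WAT. The arrays of the rest of the 7 overlapped between the genotypes. Acta1, the brightest of the 10, went the other way, with 502 and 269 in FSP27-deficient WAT and 702 and 633 in wild-type WAT. Its log2 fold change was -0.83 (adjusted p = 0.087 from limma). Summed muscle signals were 1489 and 1006 in FSP27-deficient WAT and 1242 and 1086 in wild-type WAT. Of 7 named brown adipocyte markers 6 were tested and 5 were called higher by limma, with sums of 20328 and 24735 in FSP27-deficient WAT and 1483 and 1088 in wild-type WAT. Cox8b alone gave 13491 and 19539 of the FSP27-deficient sums. Ppargc1a, tested but not called, read 209 and 161 in FSP27-deficient WAT and 205 and 110 in wild-type WAT (log2 fold change of 0.26, adjusted p = 0.78 from limma). Ucp1, the uncoupling protein that defines these cells, had a mean under 100 and read 157 and 31.3 in FSP27-deficient WAT and 18.9 and 12.9 in wild-type WAT. Macrophage markers were called lower in 3 of the 5 tested, with sums of 4501 and 5604 in FSP27-deficient WAT and 12871 and 11310 in wild-type WAT, and so were 3 of 5 of fibroblasts, 2 of 3 of mesothelium and 1 of 4 of endothelium. Of the adipocyte markers 6 were tested, 0 called higher and 2 called lower (Lep and Cidec). As Cidec is the targeted gene, its call says nothing of the number of adipocytes. Adipoq, the adiponectin gene, read 50496 and 54068 in FSP27-deficient WAT and 44423 and 48824 in wild-type WAT. Cidec itself read 8564 and 8949 in FSP27-deficient WAT and 20491 and 18255 in wild-type WAT (log2 fold change of -1.14, adjusted p = 5.7e-04 from limma). Its mean in FSP27-deficient WAT was thus still 0.45 of that in wild-type WAT, and the source of this remaining signal was not tested. The part of these cell types in the Pdk4, Pdk2 and Mpc1 values was not tested.

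The genes whose pattern over the 4 arrays was nearest to that of Pdk4, by Euclidean distance of centred log2(signal + 16) among the other 8521 genes tested, were H2-Ea (distance 0.30), Ces4a (0.37), Cox7a1 (0.39), Csrp3 (0.51) and Ephx2 (0.51). Cox7a1, a cytochrome c oxidase subunit and one of the brown adipocyte markers, read 847 and 700.3 in FSP27-deficient WAT, against 118 and 111 in wild-type WAT. Ephx2, which encodes an epoxide hydrolase, was the brightest of them, with 16259 and 17156 in FSP27-deficient WAT and 3372 and 3545 in wild-type WAT. H2-Ea, Ces4a and Csrp3 had wild-type signals below 50. Csrp3, the muscle LIM protein gene, read 163 and 265 in FSP27-deficient WAT, against 41.3 and 20.7 in wild-type WAT. The likeness rests on 4 arrays and is a description.

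The kinases act on the pyruvate dehydrogenase complex, and the genes of the complex formed the first list. Of its 7 listed genes 6 were named and tested, and Pdhx had no probe set named here. limma called 4 of them higher and 0 lower, and their median log2 fold change was 0.96, beside -0.08 over all genes tested. Of all genes tested 5.79% were called higher and 6.51% lower, and these shares stand beside each list count below. Dlat, the E2 core enzyme, read 4713 and 4114 in FSP27-deficient WAT and 1603 and 1686 in wild-type WAT (log2 fold change of 1.41, adjusted p = 3.7e-04 from limma). A second Dlat probe set gave 1.36 and another, dimmer one 0.50, which was not called. Dld, the E3 enzyme shared with the related complexes, read 2593 and 2360 in FSP27-deficient WAT, against 928 and 1433 in wild-type WAT (1.09, adjusted p = 0.0078 from limma). Pdhb, the E1 beta subunit, read 14063 and 14851 in FSP27-deficient WAT and 7631 and 8622 in wild-type WAT (0.83, adjusted p = 0.0045 from limma). Its other, much dimmer probe set gave 0.33 and was not called.

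Pdha1, the E1 alpha subunit that the kinases phosphorylate, did not pass the test at its brighter probe set. It read 5940 and 6556 in FSP27-deficient WAT, against 4389 and 5396 in wild-type WAT (log2 fold change of 0.36, adjusted p = 0.22 from limma). Its other probe set read 3762 and 4069 in FSP27-deficient WAT and 2370 and 2606 in wild-type WAT (0.65, adjusted p = 0.032 from limma over all probe sets). Lipoic acid is the cofactor of E2. Lipt1, the lipoyl transferase, was called higher (1.12, adjusted p = 0.021 from limma), and Lias, the lipoic acid synthase, had a log2 fold change of 0.34 and an adjusted p of 0.43 in limma. Without wild-type array 1 the complex had 1 call of 6. The other phosphatase genes, Pdp2 and Pdpr, had no probe set named here, so that no phosphatase of the complex was measured.

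The related dehydrogenase complexes, for 2-oxoglutarate and for branched-chain keto acids, are built in the same way. Among their genes and those of their own kinase and phosphatase, 6 of 7 were tested, 4 called higher and 0 lower, with a median of 0.76. Dlst, the E2 enzyme of the oxoglutarate complex, read 3076 and 3754 in FSP27-deficient WAT, against 1133 and 1213 in wild-type WAT (log2 fold change of 1.52, adjusted p = 3.5e-04 from limma), and its dimmer probe set gave 0.94 and was not called. Bckdha (0.93), Bckdhb (0.81) and Ogdh (0.71) were the others that passed. Bckdk, the kinase of the branched-chain complex and a relative of the PDK family, read 982 and 1174 in FSP27-deficient WAT and 793 and 806 in wild-type WAT, with a log2 fold change of 0.42 and an adjusted p of 0.24 in limma. Without wild-type array 1 the list had 1 call and without wild-type array 2 it had 2.

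Genes that supply or use pyruvate were tested for 12 of 15 listed, with 6 called higher, 0 lower and a median log2 fold change of 0.65. Me1, the cytosolic malic enzyme that makes pyruvate and NADPH, read 13742 and 13140 in FSP27-deficient WAT, against 5115 and 6627 in wild-type WAT (1.20, adjusted p = 8.9e-04 from limma). Among the genes called, the next in size were the pyruvate kinase gene Pkm (0.70), the monocarboxylate transporter Slc16a1 (0.68) and pyruvate carboxylase, Pcx (0.68). Gpt (0.62) and Ldha (0.61), an alanine aminotransferase and a lactate dehydrogenase gene, were the remaining calls. The list had 2 calls with no filter on the signal, 3 after quantile normalization and 3 with each array centred on its median. Of the first 4, Me1 alone passed without wild-type array 1, and also without wild-type array 2.

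Transcription factors and coactivators known to act on Pdk4 formed another list. Of 11 listed, 9 were tested, with 1 called higher, 1 lower and a median log2 fold change of 0.17. Over all genes tested 12.3% were called. The list had 2 called higher and 0 lower with no filter, after quantile normalization, or with every probe set on its own. Ppargc1b, a coactivator of nuclear receptors, read 637 and 586 in FSP27-deficient WAT, against 207 and 138 in wild-type WAT (1.76, adjusted p = 0.0021 from limma). Foxo3, a forkhead factor, read 180 and 245 in FSP27-deficient WAT and 500.3 and 376 in wild-type WAT (-0.99, adjusted p = 0.047 from limma), a call that was lost in 11 of 17 other settings, with adjusted p-values of 0.022 to 0.41. Ppara was below the mean signal of 100 and read 140 and 132 in FSP27-deficient WAT, against 5.25 and 13.9 in wild-type WAT. When the filter was dropped it had a log2 fold change of 2.59 (adjusted p = 0.045 from limma). A dimmer Foxo3 probe set gave -0.83 and was not called. Cebpb had 0.55 at its brighter probe set (adjusted p = 0.11 from limma). The dimmer Cebpb probe set gave 0.92 (adjusted p = 0.032 from limma over all probe sets).

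Genes known to be induced along with Pdk4 by fasting or PPAR agonists did not all go the same way. Of 16 listed, 12 were named and 9 tested, with 4 called higher, 2 lower and a median log2 fold change of 0.34. Ehhadh, the bifunctional enzyme of peroxisomal beta-oxidation, read 1094 and 1439 in FSP27-deficient WAT and 410.1 and 443 in wild-type WAT (1.52, adjusted p = 0.0011 from limma). Plin2, a lipid droplet coat protein, read 19549 and 20174 in FSP27-deficient WAT and 7598 and 7557 in wild-type WAT (1.39, adjusted p = 1.3e-04 from limma). Ucp3, an uncoupling protein of muscle and brown fat, was called higher as well (1.30, adjusted p = 0.0032 from limma), and so was Acadm, the medium-chain acyl-CoA dehydrogenase (0.78).

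Vnn1, a pantetheinase, went the other way, with 45.4 and 32.4 in FSP27-deficient WAT against 326 and 229 in wild-type WAT (log2 fold change of -2.41, adjusted p = 0.020 from limma). That call was lost without wild-type array 1 (-2.17) and without wild-type array 2 (-2.65). Txnip, the thioredoxin-interacting protein, was the other one called lower (-1.11, adjusted p = 0.0041 from limma). Angptl4, an inhibitor of lipoprotein lipase that is among the best known genes of this group and was picked out here after its values were seen, read 10405 and 9170 in FSP27-deficient WAT and 10367.5 and 9085 in wild-type WAT, a log2 fold change of 0.01 (adjusted p = 0.98 from limma). Its arrays overlapped where those of Pdk4 were 4.85-fold or more apart.

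**Figure D4:**
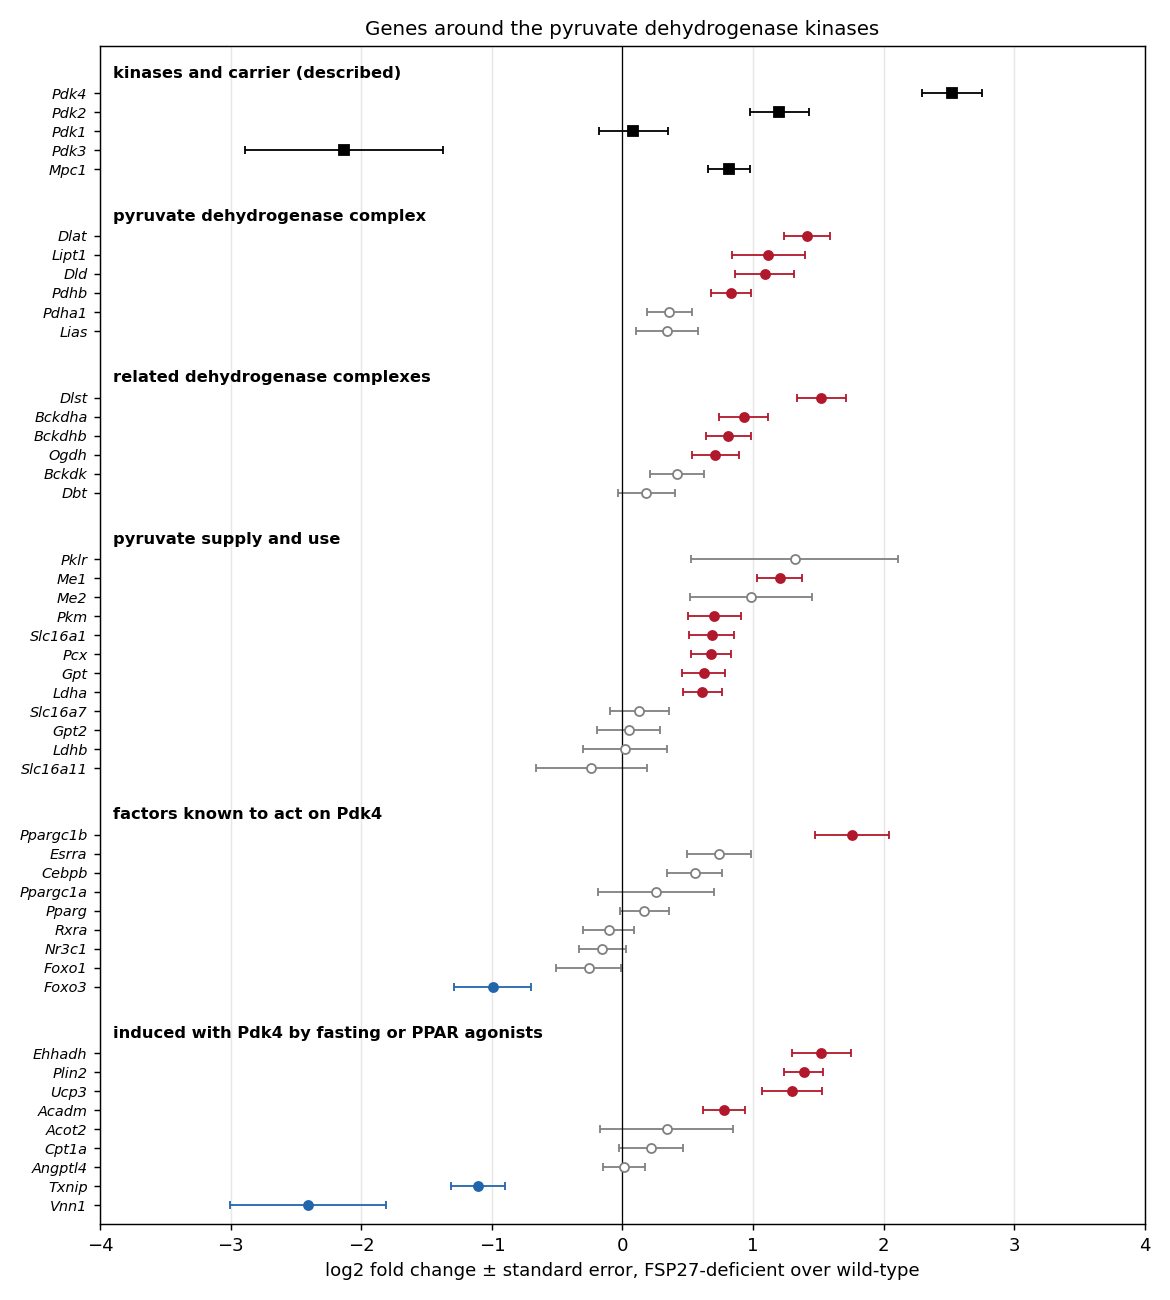
Log2 fold change of FSP27-deficient over wild-type WAT, on log2(signal + 16), with its standard error for the measured members (black squares, given as a description with no p-value) and the genes of the 5 lists with tested genes. Filled circles passed limma's test (red higher, blue lower) and open circles did not. The complex and its relatives lie to the right, up to 1.52 for Dlst, while the last list runs between 1.52 for Ehhadh and -2.41 for Vnn1.

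The lists were chosen with earlier results of these data known, so nothing is read from their counts. Of all genes tested 5.79% were called higher and 6.51% lower. Over all lists, 42 of 48 named genes were tested, 19 called higher, 3 lower and 20 not called, with a median log2 fold change of 0.62. Without wild-type array 1 there were 7 calls higher, and without wild-type array 2 there were 11. The 3'/5' signal ratios of the control probe sets, a measure of how complete the labelled RNA was, were 2.82 and 2.99 for beta-actin in FSP27-deficient WAT and 2.47 and 2.93 in wild-type WAT, and for Gapdh 0.774 and 0.824 in FSP27-deficient WAT and 0.885 and 0.866 in wild-type WAT. For pyruvate carboxylase they were 7.62 and 10.8 in FSP27-deficient WAT and 6.82 and 8.73 in wild-type WAT, and for the dim transferrin receptor probe sets 1.21 and 8.50 in FSP27-deficient WAT and 1.31 and 3.62 in wild-type WAT. The median signal of an array was 181 and 165 in FSP27-deficient WAT and 193 and 172 in wild-type WAT. The log2 difference between duplicates had an SD of 0.64 over genes for FSP27-deficient WAT and 0.46 for wild-type WAT.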

How the data were processed

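Biotinylated cRNA from pooled gonadal WAT RNA was hybridised to Affymetrix mouse arrays in duplicate. The authors deposited 1 linear intensity per array for each of 22690 probe sets, made with Affymetrix's GCOS software. Its version and scaling target are not stated in the paper or the labels. The number of arrays limits the precision. Gene names came from the platform annotation, in which 20393 probe sets have 1 symbol, 691 have several and 1606 are unnamed here. The 64 control probe sets and those with several symbols were left out of the tests. Signals of each gene's brightest probe set were tested as log2(signal + 16) where the mean was at least 100, for 8522 genes, with limma 3.58.1 in R 4.3.3 (lmFit, eBayes with trend, Benjamini-Hochberg, threshold 0.05).

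The members and lists were chosen with earlier results of these data known. Named genes were all members, Cidec, the complex, up to 4 genes per list with the largest change among those called, and the 5 nearest to Pdk4. Other genes named singly (Bckdk, Gpt, Ldha, Ppara, Cebpb, Acadm, Txnip, Angptl4 and the cell markers) were picked after their values were seen. No member's p-value is printed, but the calls of members rest on limma's adjusted p, and nothing is read from them. Alternatives were other pseudocounts (1 and 64), no filter or a mean of at least 200, quantile normalization, median centring, other uses of several probe sets, each array left out, the replicate number as a block, no trend, and the methods' t-test. Where leaving out an array left 1 of a genotype, its spread was taken from the remaining pair. The steps were tested on simulated data. Upstream sequences are from RefSeq (GRCm38.p6). The real-time PCR, protein and brown fat data of the study were not analysed here.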

Additional observations from a re-analysis of the deposited data

Results flagged for a closer look

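The array carries control probe sets for pyruvate carboxylase, which competes with the pyruvate dehydrogenase complex for pyruvate, and these were not part of the comparisons. All 4 of them had both FSP27-deficient arrays above both wild-type arrays, with log2 fold changes of 0.89 at the 3' probe set, 0.65 at the 5' probe set, and 0.69 and 0.69 at the middle probe sets MA and MB. The 3' probe set read 12195 and 11532 in FSP27-deficient WAT and 6715 and 6097 in wild-type WAT. The gene's own probe set, used above, had 0.68. The ratio of the 3' to the 5' control signal was 7.62 and 10.8 in FSP27-deficient WAT and 6.82 and 8.73 in wild-type WAT. These 4 control probe sets read 1 gene and are not separate observations. Both FSP27-deficient arrays were above both wild-type arrays for 22.7% of all genes tested. Other controls separated too, with all Gapdh probe sets above and all beta-actin probe sets below. Those of the transferrin receptor did not all separate.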

How the results depend on the processing

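Pdk4, Pdk2 and Pdk3 kept their sign in every setting run, with log2 fold changes of 2.25 to 2.80, 1.11 to 1.31 and -3.50 to -0.77. Pdk3 had no value with a mean signal of at least 200. Mpc1 was 0.61 after quantile normalization and otherwise within the spread of duplicates. Pdk1 was -0.33 at its other probe set and -0.081 as the mean of its probe sets, and with an array left out it ran between -0.084 (without wild-type array 1) and 0.25. The shift of Pdk2 minus Pdk1 was 1.53 with that other Pdk1 probe set.

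Calls depend on the trend of the spread on the signal and on single arrays. Without the trend limma called 1 gene higher and 0 lower of 1860 with an unadjusted p under 0.05, with 0 list genes and 0 members. The methods' t-test called 604 higher and 705 lower unadjusted, with 17 and 1 list genes, and after Benjamini-Hochberg adjustment 0 of those 1309, with 0 list genes and 0 members. With an array left out, 215 to 503 genes were called higher and 190 to 873 lower, 7 to 19 list genes higher and 1 to 3 lower, 2 to 3 members higher and 0 to 1 lower.

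The labels number the duplicates, and the arrays of a genotype share 1 pool. Deviations of same-numbered arrays had a correlation of 0.065 over genes, which cannot settle whether they shared a processing step. The 3'/5' ratios of beta-actin, pyruvate carboxylase and the transferrin receptor were higher on array 2 than on array 1 in both genotypes. Those of Gapdh were not. A step shared by same-numbered arrays was not tested. With the replicate block limma called 634 genes higher and 831 lower, 1465 in all, including the 1048 called without it, and among the members Pdk3 was also called lower, so that 1 was. It called 21 list genes higher and 3 lower.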
